A study of Mus musculus with 4 samples.

Results

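The IκB genes are 6 of the 24706 mouse genes with a value in each of the 4 libraries, and were taken as the entries named Nfkbia, Nfkbib, Nfkbie, Nfkbiz, Nfkbid and Bcl3. Nfkbia, Nfkbib and Nfkbie encode the classical IκB proteins IκBα, IκBβ and IκBε, and Nfkbiz, Nfkbid and Bcl3 encode the atypical, nuclear proteins IκBζ, IκBNS and Bcl-3. The 4 RNA-seq libraries, which the labels call myeloid cells, came from 2 wt and 2 cko samples. The study names the controls as PD-1f/f mice in its results and as wild-type mice in its methods, and the knockouts as PD-1f/f; LysM-Cre mice. In both PD-1f/f and PD-1f/f; LysM-Cre mice an exon of the PD-1 gene, Pdcd1, is flanked by LoxP sites, and in the latter Cre recombinase is expressed from the lysozyme gene Lyz2, which is active in myeloid cells. The results describe CD11b+ cells sorted from the liver at postnatal day 3, whereas the methods describe RNA of livers at postnatal day 2 and name no sorting for it, and these accounts were not resolved. How many animals gave each library is not given in the sources used here, so that p-values measure only the spread between these libraries.

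Inactive NF-κB dimers of Rel family proteins are held in the cytoplasm by classical IκB proteins, whose ankyrin repeats bind the dimers. Signals such as bacterial products or tumor necrosis factor activate the IKK complex, which phosphorylates IκBα so that it is ubiquitinated and degraded, and the freed dimers enter the nucleus. The Nfkbia gene is itself a target of NF-κB, which makes newly made IκBα a brake on the response in macrophages and other cells. The nuclear IκB proteins are not degraded in this way. They bind mainly p50 or p52 dimers on DNA and can raise or lower the transcription of selected genes.

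RefSeq promoter windows of GRCm38.p6, from 250 bases before to 50 bases after a start site, were matched for 5 of the 6 genes, with 3 start sites for Nfkbid and 1 for each of the others, and there was no entry for Nfkbiz. The κB consensus, the DNA motif bound by NF-κB, was searched on both strands. It was present in windows of Nfkbia, Nfkbie, Nfkbid and Bcl3 but not in that of Nfkbib. Of all 32851 windows, 8.46% held it, and of all 27025 genes with a window, 9.55% had it in at least 1. The stretches that hold the motif before a start site are shown for the 3 genes concerned, 5′ to 3′ along the strand of the gene, with the κB consensus in capitals.
Nfkbia, chr12:55492648-55492897, minus strand: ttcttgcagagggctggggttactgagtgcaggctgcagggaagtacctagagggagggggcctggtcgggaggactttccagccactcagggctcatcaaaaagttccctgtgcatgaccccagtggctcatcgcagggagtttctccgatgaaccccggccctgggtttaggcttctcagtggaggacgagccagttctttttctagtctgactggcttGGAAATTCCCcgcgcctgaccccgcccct
Nfkbie, chr17:45555450-45555699, plus strand: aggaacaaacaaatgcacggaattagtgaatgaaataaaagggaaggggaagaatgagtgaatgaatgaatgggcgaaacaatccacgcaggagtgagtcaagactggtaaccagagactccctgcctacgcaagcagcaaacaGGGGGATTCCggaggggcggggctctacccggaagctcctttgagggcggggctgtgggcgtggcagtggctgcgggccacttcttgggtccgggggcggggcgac
Nfkbid, second start site, chr7:30422156-30422405, plus strand: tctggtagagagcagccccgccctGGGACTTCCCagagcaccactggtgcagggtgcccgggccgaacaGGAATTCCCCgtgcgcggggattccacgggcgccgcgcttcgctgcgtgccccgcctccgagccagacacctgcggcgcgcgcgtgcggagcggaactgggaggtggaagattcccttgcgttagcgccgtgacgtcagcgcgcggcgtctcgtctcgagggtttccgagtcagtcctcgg
The match in Nfkbia lay 20 to 29 bases before the start site, that in Nfkbie 97 to 106 bases before it, and those in Nfkbid 217 to 226 and 172 to 181 bases before the middle of its start sites. In Bcl3 the match, GGGAAGTCCC, lay just after the start site in an annotated exon, at chr7:19822744-19822753. The AP-1 motif TGANTCA, which Fos and Jun proteins bind and which does not overlap the κB matches, was present in 1 window of these genes, that of Nfkbie, and in 7.81% of all windows. A match describes the letters only and is no measurement of binding.

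The libraries held 17691505 to 22212407 counted reads, worked out from the FPKM values, reads set against the length of the gene and the depth of the library. Pdcd1 was at 28.5 and 34.7 FPKM in the wt libraries and at 17.1 and 21.4 FPKM in the cko libraries (log2FC −0.69 ± 0.19 SE), so that its RNA was lower in both cko libraries but present in them, and the exon between the LoxP sites cannot be seen in a value per gene. Wt replicate 2 had Y-linked transcripts (Ddx3y at 24.9 FPKM) and almost no Xist, unlike the other 3 libraries. Itgam, which encodes CD11b, was at 48.5 to 54.3 FPKM in the 4 libraries. Other myeloid identity markers were not level. Of 8 tested, 4 had a log2FC above 0 and 4 below, with 3 higher and 2 lower in both cko libraries. The highest log2FC in this list was 0.98, for Spi1. Lyz2, the gene that carries Cre, had the lowest, −1.79 ± 0.18 (SE), at 31306 and 32147 FPKM in wt and 10422 and 8127 FPKM in cko. Of 8 monocyte markers, 7 had a log2FC above 0, 4 were higher in both cko than in both wt libraries and 1 was lower in both. Their summed levels were 627 and 547 FPKM in wt and 646 and 1058 FPKM in cko. Of 10 late neutrophil markers, 9 had a log2FC below 0 and 8 were lower in both cko libraries. Their sums were 160222 and 136088 FPKM in wt and 108936 and 90551 FPKM in cko. Among all genes tested, 33.6% were higher and 18.0% were lower in both cko libraries. In the monocyte list Cd14 had the highest log2FC, at 123, 65.0, 151 and 439 FPKM in wt replicates 1 and 2 and cko replicates 1 and 2, and Ly6c2 the lowest, at 343, 360, 333 and 315 FPKM in the same order. The log2FC was above 0 for 6 of 10 macrophage markers, 1 of them higher in both cko libraries, and for 5 of 5 early neutrophil markers, beside 60.4% of all genes tested. It was below 0 for 8 of 9 erythroid and 7 of 8 hepatocyte markers tested. The summed erythroid level was 3719 and 2340 FPKM in wt and 1425 and 1521 FPKM in cko, and no marker named in these lists was at 0 in all 4 libraries. In bulk RNA, more cells of a type and more RNA per cell cannot be told apart. The part of these marker genes in the results on IκB genes was not tested. An alternative removed erythroid and hepatocyte genes but also rescaled the libraries to equal summed FPKM, so that removal alone was not tested.

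All 3 classical IκB genes had higher values in both cko libraries than in both wt libraries. Nfkbia, the gene of the main inhibitor of the p65 and p50 dimer, was the most abundant IκB gene in each library, Nfkbie differed by the largest factor among the 3, and Nfkbib by the smallest. The difference was uneven between the cko libraries, since each gene was at least 2.05-fold higher in cko replicate 2 than in cko replicate 1. Differences were tested with limma on log2(FPKM + 1), on which log2FC understates the change of low genes, for 10779 genes averaging at least 1 FPKM over the libraries, with Benjamini-Hochberg adjustment over all of them.

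Nfkbia (ENSMUSG00000021025, chromosome 12, 55489410 to 55492647, minus strand) was at 222 and 206 FPKM in wt replicates 1 and 2 and at 396 and 904 FPKM in cko replicates 1 and 2. The 2 wt libraries were almost level and both cko libraries were well above them, with cko replicate 2 far above all others. These values rest on 6234 to 25752 reads, so that counting error is small beside the gap between the cko libraries. The mean was 214 ± 11.6 FPKM (SD, n = 2) in wt and 650.1 ± 359 FPKM (SD, n = 2) in cko, a ratio of 3.04. Its log2FC was 1.48 ± 0.38 (SE), with an unadjusted p of 0.00919 and an adjusted p of 0.214 by limma. By level Nfkbia ranked 167th and 194th of all genes in the wt libraries, and 94th and 38th in the cko libraries.

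Nfkbib (ENSMUSG00000030595, chromosome 7, 28758251 to 28767512, minus strand), whose protein is degraded more slowly than IκBα after stimulation, was at 15.2 and 14.6 FPKM in wt and at 21.8 and 44.8 FPKM in cko replicates 1 and 2. The wt libraries again lay close together, and cko replicate 1 was nearer to them than to cko replicate 2. Its log2FC was 1.02 ± 0.33 (SE), with an unadjusted p of 0.0237 and an adjusted p of 0.252 by limma. The gene overlaps Sirt2 on the opposite strand by 778 bases, and Sirt2, a deacetylase gene, was at 19.5, 18.5, 20.8 and 24.2 FPKM in the same order. The strand setting of the counting is not given in the sources used here, so that reads from the shared bases cannot be told apart.

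Nfkbie (ENSMUSG00000023947, chromosome 17, 45555716 to 45563169, plus strand), whose promoter stretch above holds both a κB and an AP-1 match, was at 8.55 and 12.1 FPKM in wt and at 20.7 and 59.6 FPKM in cko replicates 1 and 2. Here the wt libraries differed more, by 1.42-fold, but the lower cko library was still 1.71-fold above the higher wt library. The gap within cko, 2.88-fold, was the widest of the 6 genes. Its log2FC was 1.70 ± 0.49 (SE), with an unadjusted p of 0.0146 and an adjusted p of 0.228 by limma. In wt Nfkbie was below Nfkbib in both libraries, at 0.561 and 0.831 of its level, and in cko replicates 1 and 2 the ratio was 0.947 and 1.33, a change of order in cko replicate 2 alone.

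The nuclear IκB genes were likewise higher in both cko libraries, but by sizes that spanned the whole range of the family. Bcl3 had the largest log2FC of the 6 genes and Nfkbid the smallest, with Nfkbiz between them.

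**Figure D1:**
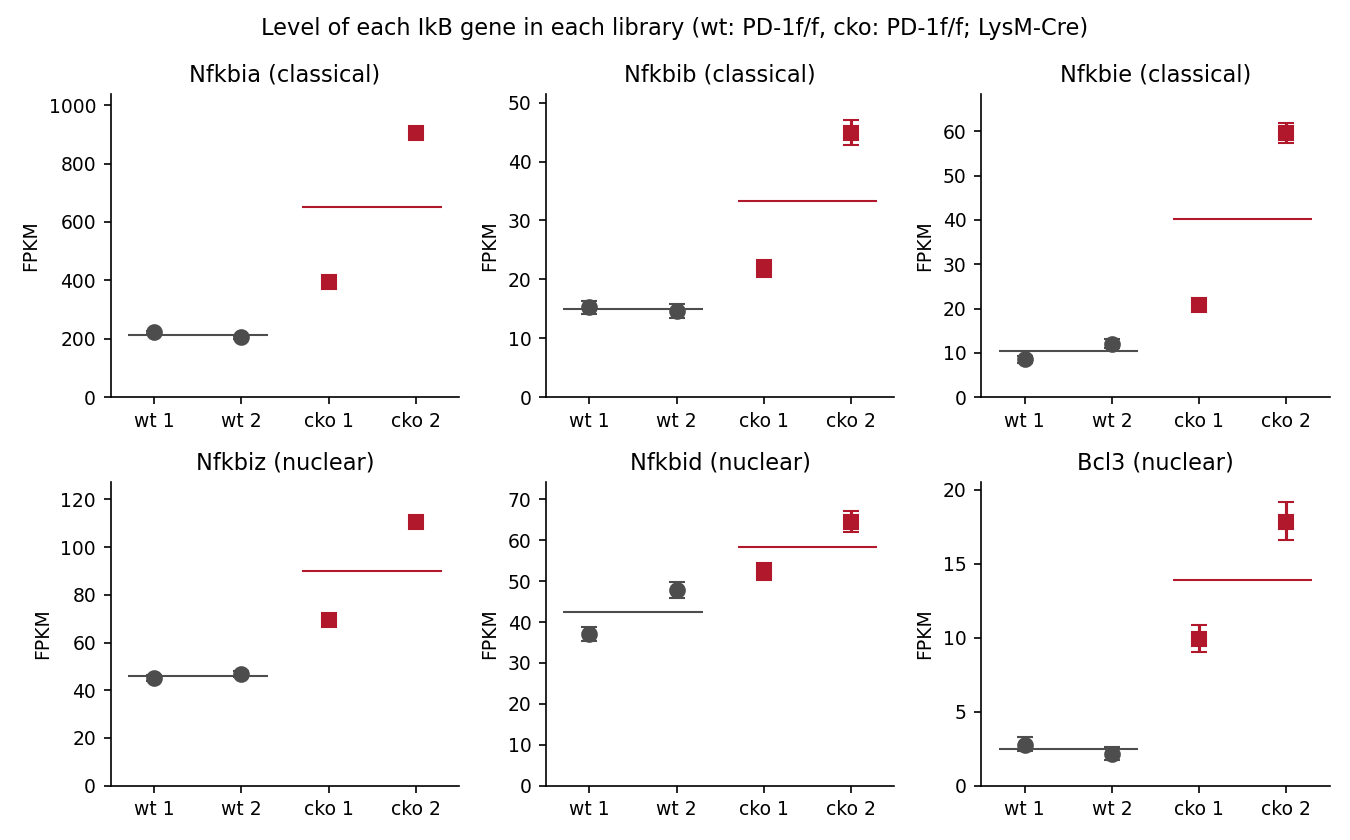
Levels of the 6 IκB genes in FPKM (y axis, from 0) in each library (x axis), with wt libraries as grey circles, cko libraries as red squares, vertical bars for 95% Clopper-Pearson intervals of the read counts and horizontal lines for group means. Both red squares lie above both grey circles for each of the 6 genes, narrowly for Nfkbid, where the lower cko library is 1.10-fold above the higher wt library, and cko replicate 2 is the highest library throughout.

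Bcl3 (ENSMUSG00000053175, chromosome 7, 19808462 to 19822770, minus strand), a partner of p50 and p52 first known as a gene at a leukemia breakpoint, was the least abundant of the 6, at 2.78 and 2.17 FPKM in wt and at 9.90 and 17.9 FPKM in cko replicates 1 and 2. The lower cko library was 3.56-fold above the higher wt library, the widest separation in the family. The wt values rest on 153 and 101 reads, with 95% Clopper-Pearson intervals of 2.36 to 3.26 and 1.77 to 2.63 FPKM, and the cko values on 459 and 782 reads, with intervals of 9.01 to 10.8 and 16.6 to 19.2 FPKM, all for counting error only. Its log2FC was 2.05 ± 0.30 (SE), with an unadjusted p of 6.19e-04 and an adjusted p of 0.183 by limma, the 39th highest log2FC of all genes tested. The ratio of mean FPKM was 5.61. The antisense gene Gm16174 lies within Bcl3 and had 4, 9, 41 and 33 reads in the same order, and the antisense gene Gm16175, which also overlaps it, had 0, 4, 5 and 6 reads. These are few beside the reads of Bcl3, but reads from shared bases cannot be told apart.

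Nfkbiz (ENSMUSG00000035356, chromosome 16, 55811375 to 55838899, minus strand), whose protein is needed by macrophages to induce a set of secondary response genes after Toll-like receptor signals, was at 44.9 and 46.7 FPKM in wt and at 69.5 and 110.7 FPKM in cko replicates 1 and 2. The wt libraries differed by 1.04-fold, the smallest gap of the 6 genes, and the lower cko library lay 1.49-fold above the higher of them. Its log2FC was 0.92 ± 0.24 (SE), with an unadjusted p of 0.00954 and an adjusted p of 0.214 by limma, so that it fell short of a log2FC of 1 and not of the p threshold of 0.01.

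Nfkbid (ENSMUSG00000036931, chromosome 7, 30421732 to 30428746, plus strand), whose protein acts with p50 and is known to restrain some Toll-like receptor responses in macrophages, was at 37.1 and 47.8 FPKM in wt and at 52.4 and 64.6 FPKM in cko replicates 1 and 2. The gap between the wt libraries, 1.29-fold, was larger than the step of 1.10-fold from the higher wt to the lower cko library, so that the groups were apart by less than their own spread. Its log2FC was 0.46 ± 0.19 (SE), with an unadjusted p of 0.0585 and an adjusted p of 0.318 by limma. Nfkbid was the only one of the 6 genes with an unadjusted p above 0.05. The window at its second start site holds more κB matches than that of any other member with a window.

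By the threshold of the study's methods, |log2FC| of at least 1 with an adjusted p under 0.05, 0 of the 6 IκB genes and 0 of the 10779 genes tested (0.0%) passed with limma. The smallest adjusted p of any gene was 0.129, 1768 genes had an unadjusted p under 0.05, and 2 genes, neither an IκB gene, passed with voom on recovered reads. The study's results give another threshold, |log2FC| above 1 with p under 0.01, taken here as the unadjusted p. By it, 2 of the 6 were higher in cko, Nfkbia and Bcl3, beside 1.88% of all genes tested, and 0 were lower, beside 0.408%. With voom 3 of 6 passed, Nfkbie being added, beside 1.66%. An unadjusted p under 0.05 with a higher value in cko was met by 5 of 6, beside 11.4%, and with a lower value by 0, beside 4.95%. Both cko libraries were above both wt libraries for 6 of 6, beside 33.6% of all genes, and below both for 0 of 6, beside 18.0%, and cko replicate 2 was in addition above cko replicate 1 for 6 of 6, beside 20.1%. The median log2FC was 1.25 over the 6 and 0.09 over all genes tested. An exact permutation test of 2 libraries against 2 cannot give a two-sided p below 0.333.

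The size of each difference depended on which library was left out. With 2 libraries in a group, leaving out 1 or the other shifts the log2FC equally, in opposite directions. Without cko replicate 2, log2FC was 0.89 for Nfkbia, 0.52 for Nfkbib, 0.95 for Nfkbie, 0.59 for Nfkbiz, 0.31 for Nfkbid and 1.65 for Bcl3. Without cko replicate 1 the values were 2.08, 1.53, 2.44, 1.25, 0.60 and 2.45 in the same order. Without wt replicate 1 and without wt replicate 2 the log2FC of Nfkbia was 1.54 and 1.43. That of Bcl3 stayed above 1 with each library left out in turn.

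**Figure D2:**
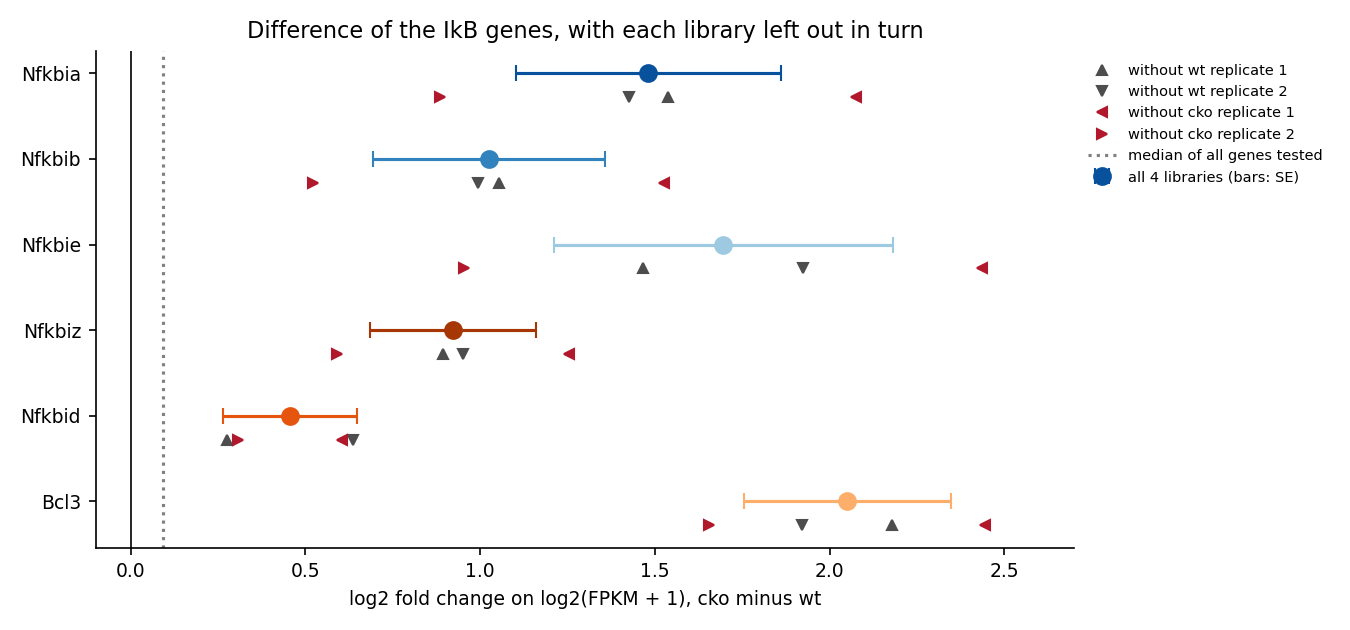
Log2 fold change of each IκB gene, cko minus wt on log2(FPKM + 1) (x axis), from all 4 libraries (circles, bars ± SE) and with each library left out (triangles, grey for wt and red for cko), with a dotted line at the median of all genes tested, 0.09. Each symbol lies above 0, and leaving out cko replicate 2 or cko replicate 1 gives the lowest and highest value for each gene but Nfkbid, for which the wt libraries do so.

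The summed level of the family was 331 and 329 FPKM in wt and 570.4 and 1202 FPKM in cko replicates 1 and 2. Nfkbia made up 67.2% and 62.5% of this sum in wt and 69.4% and 75.2% in cko. The 3 nuclear genes made up 25.6% and 29.4% in wt and 23.1% and 16.1% in cko, a share that was lower in both cko libraries. The ratio of classical to nuclear FPKM was 2.90 and 2.40 in wt and 3.33 and 5.22 in cko. Within the nuclear genes the makeup also differed, with Bcl3 at 0.0751 and 0.0453 of the level of Nfkbid in wt and at 0.189 and 0.277 in cko. The ratio of Nfkbiz to Nfkbid was 1.21 and 0.977 in wt and 1.33 and 1.71 in cko. A sum of FPKM is led by its most abundant gene, which is Nfkbia for the classical genes.

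**Figure D3:**
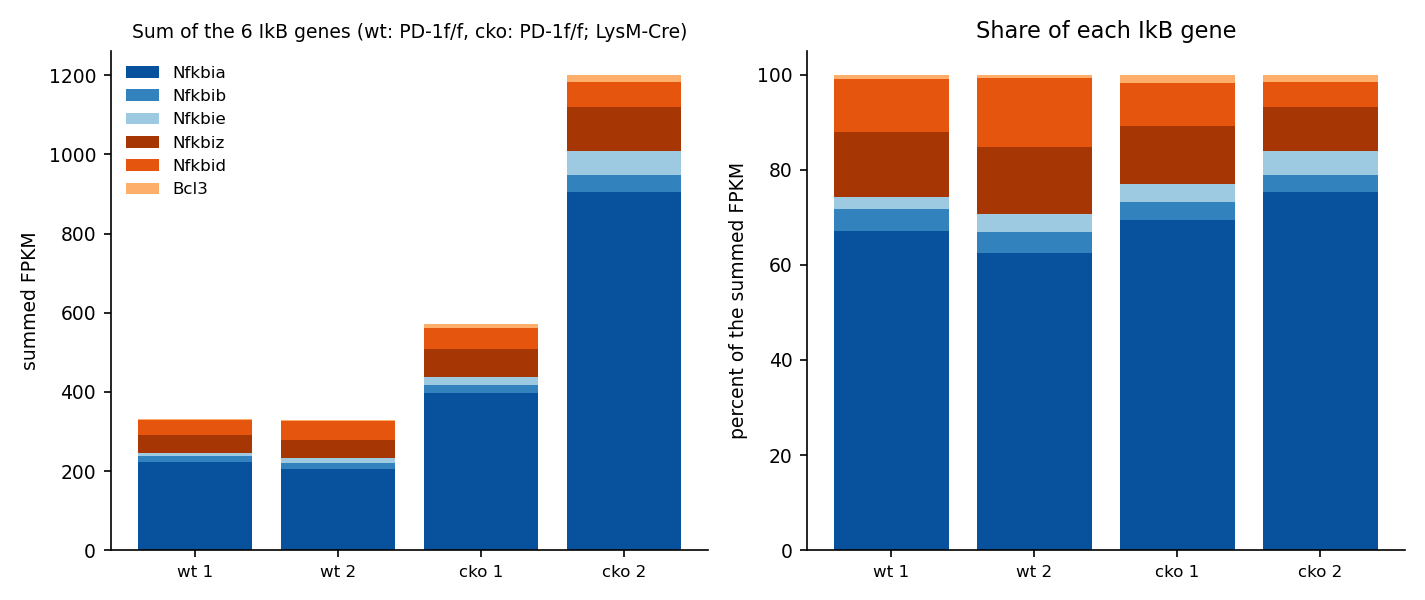
Left, summed FPKM of the 6 IκB genes in each library, and right, the percent of that sum from each gene (both y axes from 0), with classical genes in blue and nuclear genes in orange. The sum is 331 and 329 FPKM in wt against 570.4 and 1202 FPKM in cko, and the orange share is 23.1% and 16.1% in cko against 25.6% and 29.4% in wt.

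With each gene given equal weight, the mean log2(FPKM + 1) of the nuclear genes minus that of the classical genes was −0.80 and −0.84 in wt and −0.75 and −1.40 in cko replicates 1 and 2. The wt libraries and cko replicate 1 were almost level, and cko replicate 2 alone was lower. The mean difference between groups, −0.26, was smaller than the pooled SD between replicates, 0.32, and it was 0.06 without cko replicate 2. No difference between the classes beyond the spread of the libraries was detectable, and no p is given, since the genes of each class were chosen with results known. The mean log2FC was 1.40 for the classical genes, from 1.02 to 1.70, and 1.14 for the nuclear genes, from 0.46 to 2.05, so that the classical values lie inside the range of the nuclear ones.

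The order of the 6 levels was nearly the same in each library. It ran Nfkbia, Nfkbiz, Nfkbid, Nfkbib, Nfkbie and Bcl3 in wt replicate 1 and cko replicate 1, with Nfkbid above Nfkbiz in wt replicate 2 and Nfkbie above Nfkbib in cko replicate 2. Nfkbiz and Nfkbid were within their spread of each other in wt, at means of 45.8 ± 1.27 and 42.5 ± 7.60 FPKM (SD, n = 2), and so were Nfkbib and Nfkbie in cko, at 33.3 ± 16.2 and 40.1 ± 27.5 FPKM (SD, n = 2). Nfkbia and Bcl3 held the ends of the order in all 4 libraries.

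Likeness was measured as the distance between profiles of log2(FPKM + 1) over the 4 libraries, each centred on its wt mean. Among the members the nearest pair was Nfkbib and Nfkbiz, one of each class, at a distance of 0.29, and the farthest was Bcl3 and Nfkbid, both nuclear, at 2.32. Among 9153 tested protein-coding genes, the nearest to Nfkbie was Nfkb2, the gene of the p52 precursor, at a distance of 0.22, and 7 genes lay within 0.5. Nfkbia was nearest to Irf1, an interferon-induced transcription factor gene, at 0.16 and to the cytokine gene Il1f9 at 0.18, with 47 genes within 0.5. Bcl3 was nearest to Steap4, a metalloreductase gene, at 0.17 and to the phosphatase gene Dusp2 at 0.25, with 8 genes within 0.5. Nfkbib was nearest to Nlrp3 and Socs1, with 150 genes within 0.5, and Nfkbiz to Cdkn1a and Ikbke, with 272. Nfkbid was nearest to Sik3 and Siah1a, both at 0.03, with 2160 genes within 0.5, the most of the 6.

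The genes of the NF-κB dimers, which IκB proteins bind, were higher in both cko libraries for 5 of 5, beside 33.6% of all genes tested. Their median log2FC was 1.18. Relb was at 0.985 and 0.957 FPKM in wt and 3.13 and 8.77 FPKM in cko, and its log2FC was 1.69 ± 0.42 (SE). Both wt values were under the filter of 1 FPKM, which Relb passed only through its cko values. Its place in the count of 5 and its p-value are thus no separate support. Nfkb2 was at 5.39 and 7.22 FPKM in wt and 14.9 and 35.3 FPKM in cko, with a log2FC of 1.73 ± 0.40 (SE). These 2 subunits of the non-canonical branch had an unadjusted p under 0.01 and a log2FC above 1 (adjusted p 0.214 and 0.212 by limma). The log2FC was 1.18 ± 0.35 (SE) for Rel, 0.70 for Nfkb1 and 0.48 for Rela. The SE ranges of Rel, Relb and Nfkb2 overlapped. The sum of the 5 subunits was 38.5 and 42.6 FPKM in wt and 66.3 and 105 FPKM in cko. The IκB sum was 8.59 and 7.72 times the subunit sum in wt and 8.60 and 11.4 times in cko, so that cko replicate 1 was level with wt replicate 1 and cko replicate 2 alone stood above.

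Genes that act on IκB proteins had lower median log2FC values than the subunits. Of 9 tested genes of the IKK complex and its upstream kinases, 8 had a log2FC above 0, beside 60.4% of all genes. Of these, 4 had an unadjusted p under 0.05 by limma, beside 11.4% of all genes with higher values in cko. A log2FC above 1 was reached by 0 of them, and the median of the list was 0.36. In this list Ikbke, a kinase related to the IKK subunits, had the highest log2FC, 0.89, and Map3k14, which encodes the kinase NIK, the lowest, −0.11. A further list held the ubiquitin ligase that marks IκBα for degradation and ubiquitin-conjugating enzymes. Of its 9 tested genes, 3 had a log2FC above 0 and 6 below, with a median of −0.07. Values ran from −0.45 for Skp1a, of the ligase, to 0.40 for Ube2d3, a conjugating enzyme gene. Of 9 tested genes of A20, its partner proteins and other deubiquitinating brakes, 7 were above 0 and the median was 0.12. However, Tnfaip3, the gene of A20 and like Nfkbia a known target of NF-κB, was at 2.80 and 2.69 FPKM in wt. In cko Tnfaip3 was at 8.10 and 31.2 FPKM. Its log2FC was 2.19 ± 0.57 (SE), with an unadjusted p of 0.00967 and an adjusted p of 0.214 by limma. Of 3 tested genes in a list of κB-Ras, IκB-like and other NF-κB-related proteins, 2 were above 0. The highest value was 0.56 for Nfkbil1 and the lowest −0.04 for Nkap, the gene of an NF-κB activating protein. Of 7 genes known to need IκBζ only 3 passed the filter on low values. Il6 had a log2FC of 0.92 ± 0.84 (SE), with 2.63 and 0.0438 FPKM in wt and 0.835 and 6.36 FPKM in cko, so that its groups overlapped. Lcn2, the gene of the iron-binding protein lipocalin 2, was at 813 and 883 FPKM in wt and 1301 and 1035 FPKM in cko, higher in both cko libraries, with a log2FC of 0.45 ± 0.17 (SE), an unadjusted p of 0.0374 and an adjusted p of 0.276 by limma. Cebpd had a log2FC of −0.20.

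**Figure D4:**
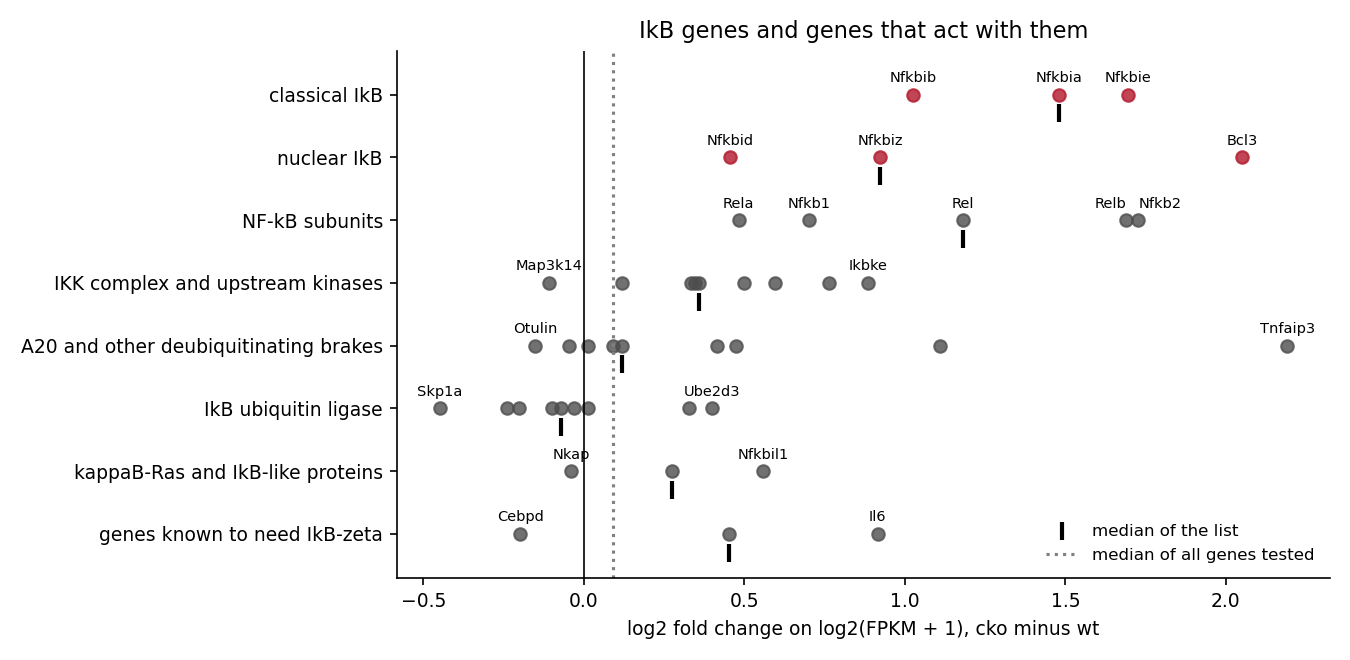
Log2 fold change, cko minus wt on log2(FPKM + 1) (x axis), of the IκB genes (red points) and of tested genes of 6 lists that act with them (grey points), with black ticks for list medians and a dotted line at the median of all genes tested, 0.09. The IκB genes and NF-κB subunits all lie at 0.46 or above. The genes listed under the ubiquitin ligase, which include ubiquitin-conjugating enzymes, lie on both sides of 0, from −0.45 to 0.40.

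All 6 IκB genes carry the ankyrin repeat domain Ank_2 in the deposited annotation. Of 116 other genes with this domain, 57 were tested, 27 had a log2FC above 0 and the median was −0.01. Both cko libraries were above both wt libraries for 17 of the 57, 29.8%, near the 33.6% of all genes. Bcl3, Nfkbib and Nfkbid lie on chromosome 7, but 8.94 Mb and 1.65 Mb apart, and their log2FC of 2.05, 1.02 and 0.46 spanned the range of the family.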

How the data were processed

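RNA-seq was analysed for 4 libraries, 2 labelled wt and 2 labelled cko, grouped by their labels. The authors deposited FPKM values for 24706 genes with positions and annotations. The submitters' processing notes name Bowtie2 2.2.3, TopHat2 2.0.12, HTSeq 0.6.0 and the build mm9, whereas 92.61% of the deposited positions match GENCODE M21, an annotation of GRCm38. The counting mode is not given in the sources used here. Library totals were derived from the steps of single-exon genes, of whose values under 1000 reads 99.97% to 100.0% were then whole multiples of 1 read within 0.01 read, and reads were recovered for 98.58% of genes (91.17% from annotated lengths; for Nfkbie the length was found by search). Depth was 17691505 to 22212407 reads, and Clopper-Pearson intervals of 95% cover counting error only.

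Log2(FPKM + 1) was tested with limma 3.58.1 in R 4.3.3 (eBayes with a trend, no covariates) for 10779 genes averaging at least 1 FPKM, after a test on simulated data. The members and all gene lists were chosen with earlier results of these data known. Named genes are the members, Pdcd1, NF-κB subunits, the genes of each list with the highest and lowest log2FC or past the threshold on unadjusted p, the 2 genes nearest to each member, and the highest markers. Lcn2, Ly6c2, Itgam, Ddx3y, Xist and the genes that overlap members were named after their values were seen. Alternatives covered the pseudocount, filters, scaling, the trend, the replicate block, voom on recovered reads (minimum mean 10), and left-out libraries. A further alternative removed erythroid and hepatocyte genes and then rescaled the libraries to equal summed FPKM. The log2 ratio of group means and the crossed replicate block were chosen after seeing the data. Of the marker lists, B cell genes had a log2FC above 0 for 0 of 6 tested, T cell for 0 of 1, mast cell and basophil for 2 of 5, megakaryocyte for 0 of 2, endothelial and stromal for 2 of 6 and myeloid identity for 4 of 8. Tables were made with pandas 2.3.3, scipy 1.17.1 and figures with matplotlib 3.10.9 in Python 3.11.15.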

Additional observations from a re-analysis of the deposited data

How the results depend on the processing

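Of 84 alternative log2FC values of the 6 IκB genes, 84 were above 0. Many of these signs were fixed in advance. Another filter, no trend or the replicate block leaves the log2FC itself as it was. Leaving out a library could not change the sign, since both cko libraries were above both wt libraries for each gene. Nfkbia passed |log2FC| above 1 with an unadjusted p under 0.01 from all libraries, but not without the filter on low values (1.48), with median-of-ratios scaling (1.36), with quantile normalization (1.42) or without a trend (1.48). With erythroid and hepatocyte genes removed and the libraries then rescaled to equal summed FPKM, Nfkbie (1.89) and Nfkbiz (1.13) passed too. Before these steps, summed FPKM was 491983 and 457127 in wt and 412778 and 403900 in cko, so that rescaling raised cko values against wt. Removal without rescaling was not tested. Nfkbie also passed with the replicate block (1.70) and with voom (1.79). With a library left out, the log2FC ranged from 0.89 to 2.08 for Nfkbia, 0.52 to 1.53 for Nfkbib, 0.95 to 2.44 for Nfkbie, 0.59 to 1.25 for Nfkbiz, 0.28 to 0.64 for Nfkbid and 1.65 to 2.45 for Bcl3, the lone library of a group being assumed to vary like the other group. The count of IκB genes past this threshold was 2. It was 1 without the filter, with median-of-ratios scaling, with quantile normalization and without a trend. It was 4 with erythroid and hepatocyte genes removed and libraries rescaled. The log2 ratio of mean FPKM was 2.49 for Bcl3. The causes were not tested.

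Over all genes, 203 genes passed this threshold with higher and 44 with lower values in cko. The counts were 141 and 72 with median-of-ratios scaling and 150 and 79 with quantile normalization. They were 351 and 17 with erythroid and hepatocyte genes removed and libraries rescaled. These steps together moved the median log2FC of all genes from 0.09 to 0.27. With a minimum of 5 FPKM, where fewer genes were tested, 126 genes in all passed. The threshold on adjusted p was passed by 0 IκB genes in each alternative with a test, and by up to 2 of all genes. Whether replicate numbers pair the samples is not given in the sources used here. Replicate 1 minus replicate 2 in wt against cko had r = −0.16 across 10779 genes. This cannot decide it, since the wt libraries also differed in Y-linked transcripts and Xist. With the replicate block 3 IκB genes and 258 genes in all passed on the unadjusted p, and with crossed pairs 3 and 363. Counting error limits Bcl3 most, at 101 reads in wt replicate 2.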
